A study of Mus musculus with 8 samples.

Results

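The 8 genes described here encode the neuronal nicotinic acetylcholine receptor subunits Chrna3, Chrna4, Chrna5, Chrna6, Chrna7, Chrnb2, Chrnb3 and Chrnb4. They were taken by gene symbol from a count table of 21761 genes, and all 8 were found and passed the filter on low counts. The study measured ribosome-associated RNA of midbrain dopaminergic neurons by translating ribosome affinity purification (TRAP), in which RNA is pulled down with a tagged ribosome made in the chosen cells. All mice were C57BL/6 and received a daily intraperitoneal injection for 5 days. The MPTP group (4 libraries) was given MPTP-HCl (30 mg/kg, as free base), and the saline group (4 libraries) received saline, with tissue taken 4 days after the last injection. MPTP is a toxin that is converted in the brain to an inhibitor of mitochondrial respiration, which dopaminergic neurons take up. The sources used here give neither age nor sex, nor the allele that carries the tag or the gene that drives it, and the labels do not say whether nigral and ventral tegmental neurons were pooled. The deposited counts carry the letters SN in their name, usually short for substantia nigra.

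Nicotinic receptors are cation channels opened by acetylcholine and built from several subunits around a central pore. Chrna4 and Chrnb2 form the main high-affinity nicotine site of the brain. Chrna6 and Chrnb3 mark catecholaminergic neurons and sit in receptors on dopamine axon terminals. Chrna5 and Chrnb3 act as accessory subunits, Chrna3 and Chrnb4 form the ganglionic and habenular type, and Chrna7 can form a channel on its own.

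Totals lay between 54192354 and 78892061 counts a library. The dopaminergic neuron markers were abundant in every library: tyrosine hydroxylase Th was at 1847 to 3023 CPM (counts scaled to a common library size) and the dopamine transporter Slc6a3 at 2505 to 3777 CPM. Markers of other cells were present too. None of the 32 markers of astrocytes, oligodendrocytes, microglia and endothelium was at 0, and their summed level was 1651 to 1878 CPM after MPTP and 1254 to 2251 CPM after saline. The GABAergic markers Gad2, Gad1 and Slc32a1 averaged 188, 41.3 and 24.5 CPM. The glutamatergic markers Slc17a6 and Slc17a7 averaged 72.9 and 4.73 CPM. Of neurons known for Chrna3 and Chrnb4, the cholinergic markers Chat, Slc5a7 and Slc18a3 had means of 6.20, 3.87 and 2.09 CPM. The medial habenula markers Tac2, Gpr151 and Pou4f1 had means of 0.56, 0.66 and 3.97 CPM. The part of such cells in the counts of Chrna3 and Chrnb4 was not tested. The library saline 3 stood apart: it had the highest non-neuronal sum (2251 CPM) and the lowest dopaminergic score (7.78, the mean log2 CPM of 12 markers, against 8.35 to 8.41 in the other saline libraries and 7.96 to 8.22 in MPTP). The fold changes and ratios of the subunits, and some correlations, are therefore also given without it. Levels per length, the most similar genes and the other gene lists are given over all 8 libraries only. In RNA from many cells, fewer cells of a type and less RNA per cell cannot be told apart.

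On GRCm38 (GENCODE vM21), 5 of the 8 genes lie in 2 clusters. Chrna5 (chr9:54980880-55007779, plus strand), Chrna3 (chr9:55010111-55026562, minus strand) and Chrnb4 (chr9:55028154-55048779, minus strand) follow one another, with gaps of 2331 and 1591 bases. Chrnb3 (chr8:27368711-27399730, plus strand) and Chrna6 (chr8:27403212-27413944, minus strand) run towards each other with 3481 bases between them. Chrna4 (chr2:181018380-181043546), Chrna7 (chr7:63098692-63212569) and Chrnb2 (chr3:89746195-89764632) stand alone, each on the minus strand. In RefSeq the spans of Chrna3 and Chrna5 overlap by 1304 bases on opposite strands, while in GENCODE they share no exonic bases. In GENCODE 1365 exonic bases of Chrnb2 (16.3%) also belong to Adar on the other strand, while the RefSeq spans overlap by 8 bases. The annotation used for counting is not given. The library kit did not mark strand, so reads from a stretch that 2 genes share cannot be told apart.

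RefSeq promoter windows of GRCm38.p6, each the 250 bases before an annotated start, were found for 6 of the 8 subunits (7 windows, 2 of them for Chrna5). They are shown for the most abundant subunit Chrna4, its partner Chrnb2 and the neighbours Chrna3 and Chrna5 (second start), because these windows differ in GC boxes. Only bases outside annotated exons are printed, 5′ to 3′ on the gene's strand, and capitals mark the GC box GGGCGG or its reverse complement CCGCCC. The stretches are chr2:181039306-181039427 (minus strand) for Chrna4, chr3:89764633-89764882 (minus) for Chrnb2, chr9:55026563-55026812 (minus) for Chrna3 and chr9:54981248-54981465 (plus) for Chrna5. Those of Chrna4 and Chrna5 lie inside the span of a longer annotated transcript.
Chrna4: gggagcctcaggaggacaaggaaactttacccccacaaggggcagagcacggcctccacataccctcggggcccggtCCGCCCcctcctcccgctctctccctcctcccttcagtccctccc
Chrnb2: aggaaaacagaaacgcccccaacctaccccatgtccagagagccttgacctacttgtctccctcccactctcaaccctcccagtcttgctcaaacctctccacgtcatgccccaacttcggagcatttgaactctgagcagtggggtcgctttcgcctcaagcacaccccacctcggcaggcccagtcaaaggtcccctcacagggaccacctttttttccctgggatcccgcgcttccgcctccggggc
Chrna3: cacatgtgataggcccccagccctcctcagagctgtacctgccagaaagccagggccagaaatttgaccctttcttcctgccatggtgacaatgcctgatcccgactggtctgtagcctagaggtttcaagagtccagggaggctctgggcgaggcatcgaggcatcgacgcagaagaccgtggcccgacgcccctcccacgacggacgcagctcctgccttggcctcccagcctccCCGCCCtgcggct
Chrna5: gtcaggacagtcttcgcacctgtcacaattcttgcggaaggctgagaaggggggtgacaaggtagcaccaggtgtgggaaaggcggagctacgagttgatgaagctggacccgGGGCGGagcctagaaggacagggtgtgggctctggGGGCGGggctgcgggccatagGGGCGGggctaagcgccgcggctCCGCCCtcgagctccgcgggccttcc

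Over the whole 250-base windows, the GC box was found 3 times before Chrna4, 4 times before the second start of Chrna5, once before Chrna3 and once before Chrna7, and not before Chrnb2, Chrnb4 or the first start of Chrna5. Of all 32851 windows of this length, 32.7% held it on either strand. GC content ran from 74.4% for Chrna4 to 40.0% for the first start of Chrna5, with a median of 52.4% over all windows. The TATA box TATAAA, the Nr4a2 element AAAGGTCA, the AP-1 site TGANTCA and the CRE TGACGTCA, searched on both strands, matched 0 of the 7 subunit windows (12.4%, 1.34%, 6.75% and 1.55% of all windows). The E-box CANNTG matched 6 of the 7 (66.2% of all). None of these motifs contains another, and a match is a description of letters, not of a bound site.

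The first question was how the levels of the 8 subunits compared in the TRAP RNA. The comparison has no unpurified RNA beside it, and the part of other cells in these levels was not tested. Levels were compared as CPM per kb of merged exons, since counts of different genes depend on their length. Chrna4 stood highest at 143.6 ± 15.9 CPM per kb (SD, n = 8 libraries), above 98.4% of the genes tested. Chrna6 followed at 66.7 ± 10.2 and Chrnb3 at 35.9 ± 5.93 CPM per kb. These 3 subunits lay far above the other 5: Chrnb2 7.37 ± 0.70, Chrna3 5.71 ± 1.12, Chrna5 5.20 ± 0.94, Chrna7 2.02 ± 0.32 and Chrnb4 0.85 ± 0.23 CPM per kb.

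**Figure D1:**
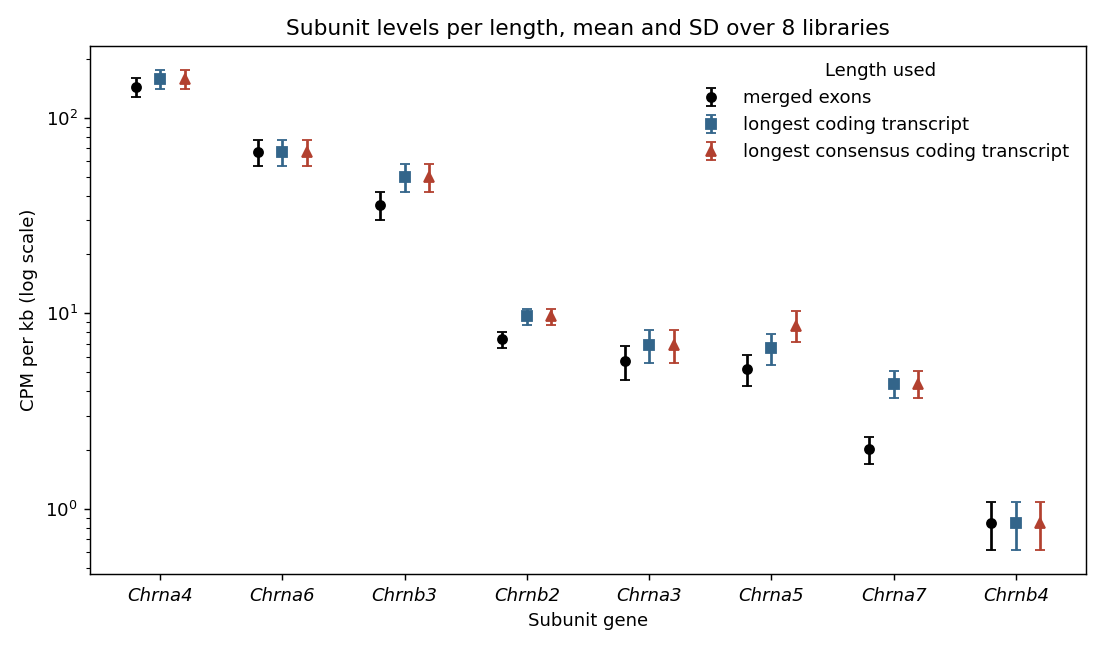
Level of each subunit in CPM per kb (log axis), as mean and SD over 8 libraries, with the length taken as merged exons (black circles), the longest coding transcript (blue squares) or the longest consensus coding transcript (red triangles). Chrna4, Chrna6 and Chrnb3 lie above the other 5 subunits under each length, and Chrnb2, Chrna3 and Chrna5 lie close together.

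Within single libraries the order of the top 4 was the same throughout. Chrna4 exceeded Chrna6 in 8 of 8 libraries (ratio of means 2.15, range 1.84 to 2.42), Chrna6 exceeded Chrnb3 in 8 of 8 (1.86, 1.64 to 2.11) and Chrnb3 exceeded Chrnb2 in 8 of 8 (4.88, 3.95 to 5.92). Chrnb2, the usual partner of Chrna4, was thus far below it per length of transcript. Chrnb2, Chrna3 and Chrna5 were closer neighbours, whose ranges over all libraries overlapped. Within a library Chrnb2 exceeded Chrna3 in 8 of 8 (1.29, 1.14 to 1.79) and Chrna3 exceeded Chrna5 in 8 of 8 (1.10, 1.00 to 1.24), in the closest library by almost nothing. Chrnb4 was lowest in every library, 170 times below Chrna4 (137 to 259). Of the summed level of the 8 subunits, Chrna4 held 50.5 to 56.0%, Chrna6 23.1 to 27.4% and Chrnb3 12.3 to 14.8% in single libraries, and Chrnb4 0.21 to 0.39%. By group, the share of Chrna4 was 54.3 ± 0.24% in MPTP and 53.4 ± 2.24% in saline (SD, 4 libraries each), and that of Chrnb3 12.9 ± 0.80% and 13.9 ± 0.88%.

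The lower part of this order rests on the length used, and so does the place of Chrna6 above Chrnb3. Before division by length, Chrnb3 (mean 229 CPM) lay above Chrna6 (194 CPM) in every library. The annotation used for counting is not given, so the lengths may not match the exons counted. With the longest coding transcript, Chrna7 stood at 4.37 instead of 2.02 CPM per kb and Chrna3 exceeded Chrna5 in only 4 of 8 libraries. With the longest consensus coding transcript, a length added after seeing the data, Chrna5 (8.66) lay above Chrna3 (6.90). Under both, Chrna4, Chrna6 and Chrnb3 kept the first 3 places in that order by their means, but the ranges of Chrna6 and Chrnb3 over libraries overlapped (ratio of means 1.34).

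The second comparison asked whether subunit levels in the TRAP RNA differed 4 days after MPTP. No subunit passed an adjusted p of 0.05 in edgeR's quasi-likelihood test. The background in the same test was 0.106% of 15999 genes called, 0.075% higher and 0.0313% lower in MPTP. At an unadjusted p under 0.05, 0 of the 8 subunits stood against 8.78% of all genes, and for 0 of the 8 did the MPTP and saline libraries fail to overlap, against 4.19% of all genes. DESeq2 also called 0 (0 at an unadjusted p under 0.05, against 9.81% of genes), and limma voom called 0 (1 of 8 unadjusted, Chrnb3, against 12.2% of genes).

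In log2 fold change, MPTP minus saline, 6 subunits were below 0 and 2 above, against 49.9% of all genes below 0. The median was -0.05 for the subunits and 0.00 for all genes, and the median size regardless of sign was 0.07 against 0.13. That count of 6 rests on single libraries: it was 3 of 8 without MPTP 1, saline 2 or saline 4, and 7 of 8 without MPTP 4, saline 1 or saline 3.

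**Figure D2:**
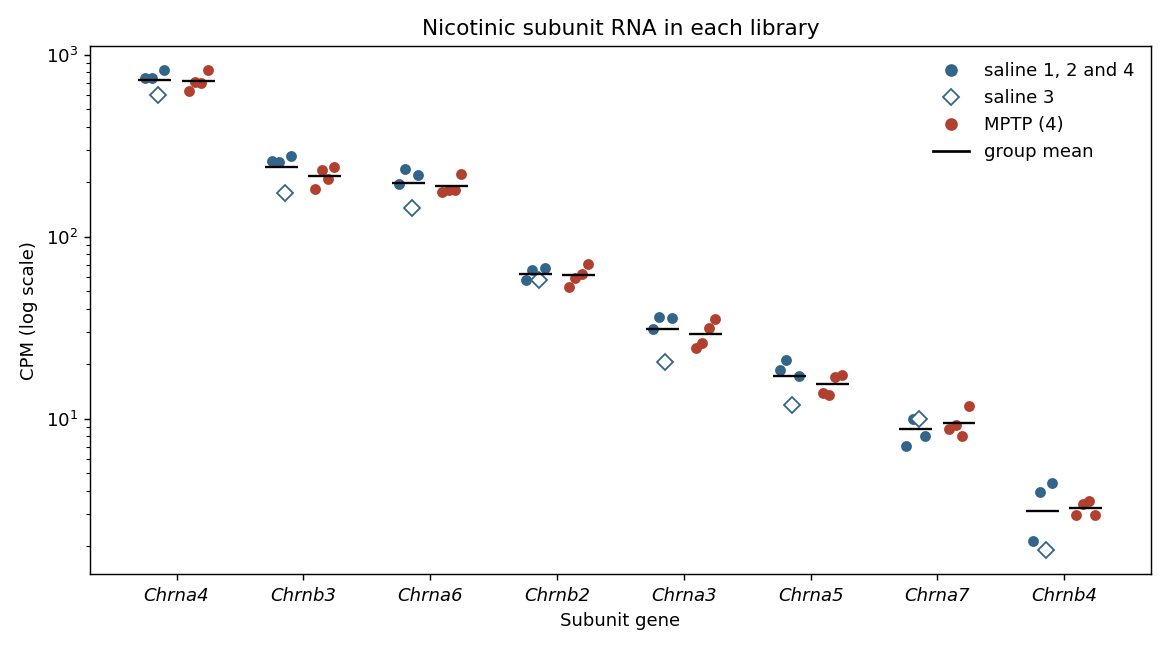
CPM (log axis) of each subunit in each library, saline in blue on the left and MPTP in red on the right, with a line at the group mean and saline 3 as an open diamond. The groups overlap for all 8 subunits, and saline 3 is the lowest of the 8 libraries for 6 of them, with Chrna7 and Chrnb2 as the exceptions.

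The high-affinity pair Chrna4 and Chrnb2 had nearly the same level in both groups. Chrna4, the agonist-binding subunit, was at 630.1, 704, 699 and 822 CPM in MPTP libraries 1 to 4 and at 741, 747, 604 and 824 CPM in saline libraries 1 to 4. The highest MPTP and the highest saline library lay side by side, and the lowest of all was saline 3. Its log2 fold change was -0.03 (SE 0.11, 95% interval -0.25 to 0.19, adjusted p = 0.955), which in folds is 0.979 (0.838 to 1.14). Chrnb2, the structural partner that also shapes the binding site, was at 52.6, 59.1, 62.5 and 70.6 CPM after MPTP and 58.1, 65.9, 58.1 and 67.1 CPM after saline. MPTP libraries held both its lowest and its highest value. Its log2 fold change was -0.03 (SE 0.10, interval -0.24 to 0.19, adjusted p = 0.963).

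Chrna6 and Chrnb3, the pair that marks catecholaminergic neurons, were both lower on average in MPTP by less than the spread between libraries. Chrna6 was at 176, 179.5, 181 and 221 CPM after MPTP and 196, 235, 144 and 219 CPM after saline. In MPTP, 3 libraries lay within a few CPM of each other and MPTP 4 stood above them, while saline held both the highest and the lowest value of the 8. The log2 fold change of Chrna6 was -0.07 (SE 0.13, interval -0.33 to 0.20, adjusted p = 0.911).

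Chrnb3 was at 182, 231, 207 and 242 CPM after MPTP and 261, 256, 175 and 278 CPM after saline. Every MPTP library lay below saline 1, 2 and 4, and every one lay above saline 3. The means were 215 ± 26.5 and 242 ± 46.2 CPM (SD, 4 libraries each). Its log2 fold change, -0.17 (SE 0.13, interval -0.44 to 0.10), was the lowest of the 8 subunits, with an unadjusted p of 0.197 and an adjusted p of 0.730 in edgeR's quasi-likelihood test.

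The clustered genes Chrna5, Chrna3 and Chrnb4 had wider spreads. Chrna5, the accessory subunit that raises calcium permeability, was at 13.9, 13.5, 16.8 and 17.4 CPM after MPTP and 18.4, 20.9, 11.9 and 17.2 CPM after saline. The 2 highest values were saline and the lowest was saline 3. Its log2 fold change was -0.15 (SE 0.16, interval -0.49 to 0.19, adjusted p = 0.827). Chrna3, an agonist-binding subunit best known from autonomic ganglia, was at 24.3, 26.0, 31.3 and 35.3 CPM after MPTP and 31.0, 36.3, 20.4 and 35.8 CPM after saline. Saline 3 was again lowest and the other values were interleaved, with a log2 fold change of -0.08 (SE 0.16, interval -0.42 to 0.26, adjusted p = 0.921).

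Chrnb4, the beta subunit of the ganglionic receptor, had the fewest counts of the 8, 119 to 263 a library. It was at 2.94, 3.41, 3.52 and 2.96 CPM after MPTP and 2.13, 3.93, 1.89 and 4.45 CPM after saline. The 4 MPTP values all lay between the saline values, with a coefficient of variation of 9.44% in MPTP and 41.4% in saline. Its log2 fold change was 0.05 (SE 0.29, interval -0.57 to 0.67, adjusted p = 0.977), which in folds is 1.04 (0.674 to 1.59), the widest interval of the 8. The difference in spread between the groups was not tested.

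Chrna7, which forms a calcium-permeable channel on its own, was the other subunit above 0. It was at 8.73, 9.19, 8.07 and 11.7 CPM after MPTP and 7.03, 9.92, 9.97 and 8.05 CPM after saline. The highest value was MPTP 4 and the lowest saline 1, with the other libraries mixed. Its log2 fold change was 0.11 (SE 0.17, interval -0.26 to 0.47, adjusted p = 0.894) and was -0.01 without MPTP 4.

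Leaving out saline 3 moved 7 of the 8 values down and Chrna7 up. Chrnb3 was then 0.30 lower on the log2 scale (log2 fold change -0.30, unadjusted p 0.00526, adjusted p = 0.110 in edgeR), and its MPTP and saline libraries no longer overlapped, the only such subunit of 8, against 14.8% of all genes without saline 3. Chrna5 stood at -0.29 (unadjusted p 0.0488, adjusted p = 0.293), Chrna3 at -0.23, Chrna6 at -0.19, Chrnb4 at -0.13, Chrna4 at -0.11 and Chrnb2 at -0.06. At an unadjusted p under 0.05, 2 of 8 subunits stood against 16.9% of all genes. edgeR called 0 of 8 subunits without saline 3, where it called 1.84% of 16180 genes. DESeq2 without saline 3, added after seeing the data, called Chrnb3 alone (-0.30, adjusted p = 0.0455), where it called 5.13% of 16162 genes.

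Markers of other cells moved with these values. The summed level of non-neuronal markers was 1254 to 1444 CPM in saline 1, 2 and 4 and 1651 to 1878 CPM in MPTP, with no overlap, and 2251 CPM in saline 3. Oligodendrocyte markers made up most of it (761 to 919 CPM, 1110 to 1264 CPM and 1598 CPM, in that order), while the microglial sums of MPTP and saline overlapped. When the non-neuronal score (mean log2 CPM over the 4 cell types) entered the fit of all 8 libraries as a covariate, 7 subunits were above 0 and none was called: Chrnb4 0.34, Chrna3 0.15, Chrna6 0.11, Chrna7 0.10, Chrna4 0.07, Chrna5 0.05 and Chrnb2 0.03, with Chrnb3 at -0.03. With the covariate and without saline 3 together, Chrnb3 stood at -0.30 (adjusted p = 0.551) and Chrna7 at 0.51 (unadjusted p 0.100, adjusted p = 0.574), the largest value of any subunit in any fit. Without saline 3 the non-neuronal score was 2.79 to 3.28 in MPTP and 2.38 to 2.72 in saline, with no overlap. Covariate and group therefore cannot be told apart in that fit. The part of other cells in the values of single subunits was not tested beyond these fits.

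**Figure D3:**
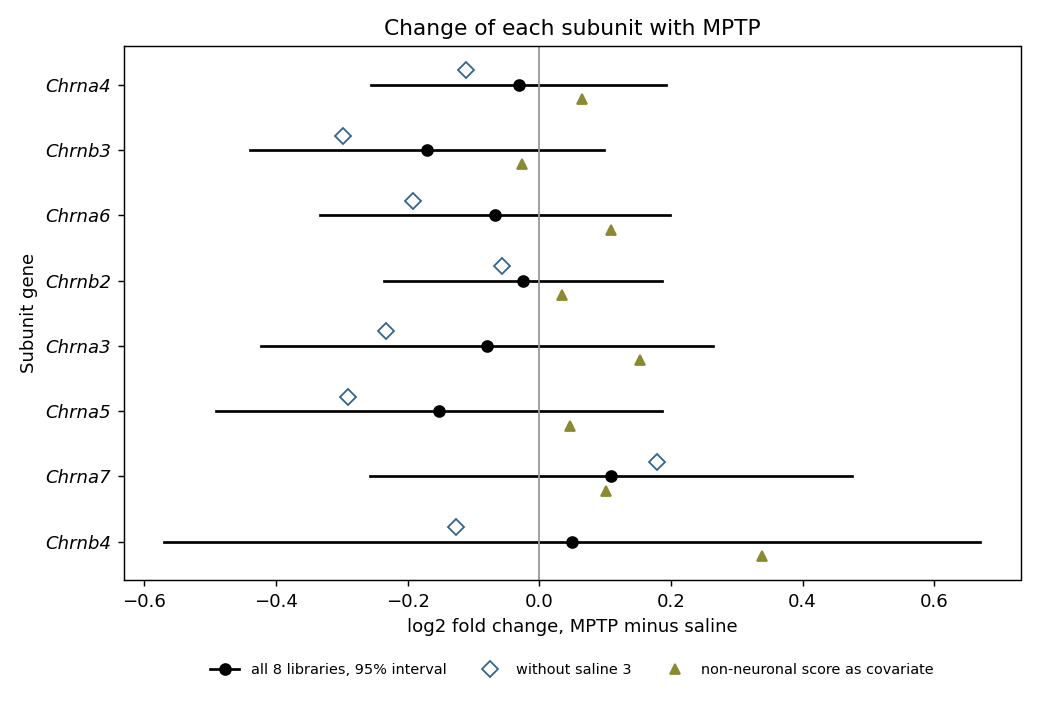
Log2 fold change, MPTP minus saline, of each subunit with its 95% interval over all 8 libraries (black), the value without saline 3 (open diamond) and the value with that covariate, the non-neuronal score, in the fit (triangle). All 8 intervals include 0, Chrnb3 lies at -0.30 without saline 3, and 7 triangles lie above 0.

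The balance of subunit RNA was compared through log2 ratios of subunits within a library, which do not measure subunit protein or assembled receptors. None of the 6 ratios had a p under 0.05 in the exact two-sided permutation test, whose smallest possible p here is 0.0286. After adjustment over the 6 ratios, a single ratio could not have passed 0.05 even with its groups fully apart. The adjusted values therefore do not show that the ratios were alike. For Chrnb3 to Chrnb2, the log2 ratio was 1.79, 1.97, 1.73 and 1.77 in MPTP and 2.17, 1.96, 1.59 and 2.05 in saline, with saline 3 lowest and the other saline libraries near or above the highest MPTP one. Its mean was 0.13 lower in MPTP (difference -0.13, exact permutation p = 0.400, adjusted over the 6 ratios 0.900). Chrna6 to Chrna4 was -1.91 ± 0.06 after MPTP and -1.89 ± 0.16 after saline (SD, n = 4 in each, exact permutation p = 0.800, adjusted 0.914). The differences for the others were -0.10 for Chrna5 to Chrna4, -0.01 for Chrna3 to Chrna6, 0.14 for Chrna7 to Chrna4 and 0.17 for Chrnb4 to Chrnb2, with adjusted exact permutation p from 0.900 to 0.914. Without saline 3, Chrnb3 to Chrnb2 differed by -0.24 (exact permutation p = 0.0857, adjusted 0.429), Chrna7 to Chrna4 by 0.29, Chrna5 to Chrna4 by -0.18, Chrna6 to Chrna4 by -0.079, Chrna3 to Chrna6 by -0.051 and Chrnb4 to Chrnb2 by -0.001, with adjusted exact permutation p from 0.429 to 1.0.

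**Figure D4:**
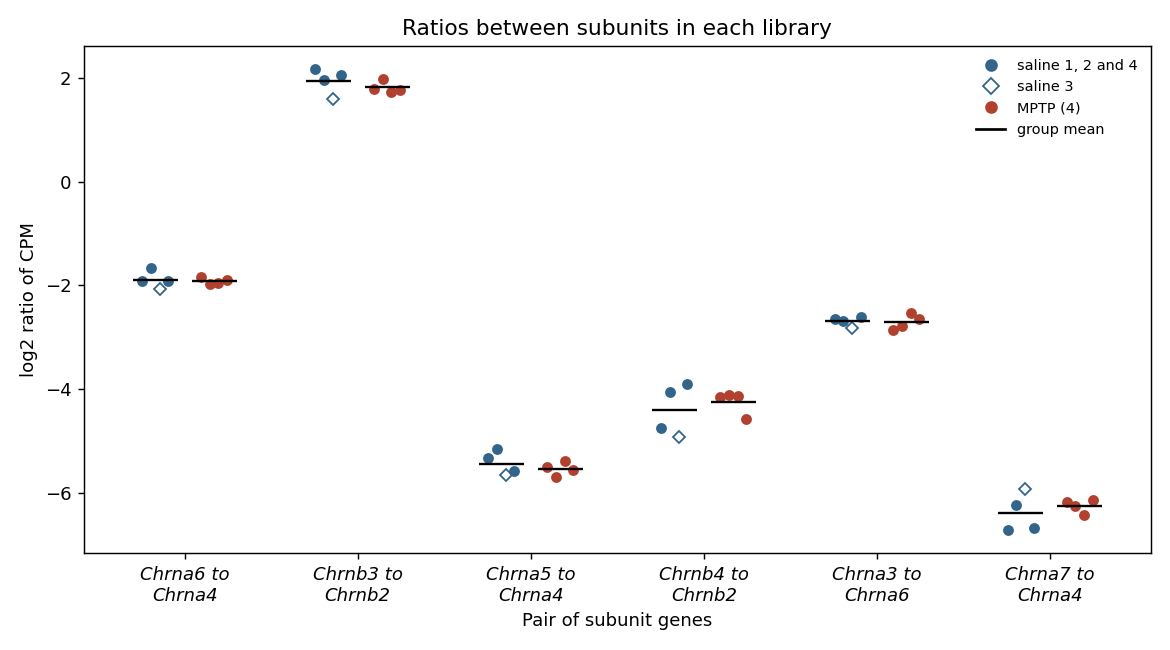
Log2 ratio of CPM for 6 subunit pairs in each library, saline in blue (saline 3 as an open diamond) beside MPTP in red, with a line at the group mean. The groups overlap for every pair, and the saline libraries are more widely spread than the MPTP libraries for 5 of the 6 pairs.

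Across the 8 libraries, most subunits varied with the dopaminergic marker score, a list that holds no nicotinic subunit. As a description over points that share library size and dissection, Pearson's r of log2 CPM with that score was 0.95 for Chrnb3, 0.92 for Chrna6, 0.90 for Chrna5, 0.89 for Chrna3 and 0.85 for Chrna4 (n = 8). It was 0.58 for Chrnb2, 0.49 for Chrnb4 and -0.20 for Chrna7. With the non-neuronal score, r was -0.94 for Chrna5, -0.90 for Chrna3, -0.90 for Chrna6, -0.76 for Chrnb3 and -0.74 for Chrna4. It was -0.58 for Chrnb2, -0.57 for Chrnb4 and 0.16 for Chrna7. Whether the subunits followed one score rather than the other was not tested, and no share of all genes is given for such r. Without saline 3 (n = 7), r with the dopaminergic score was 0.91 for Chrnb3, 0.86 for Chrna6, 0.83 for Chrna5, 0.80 for Chrna3 and 0.75 for Chrna4. It was 0.58 for Chrnb2, 0.11 for Chrnb4 and -0.03 for Chrna7. Chrna7 had the lowest r among the 8 subunits, but without saline 3 Chrnb4 lay close to it.

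Set against that score over all 8 libraries, the groups overlapped for each subunit (0 of 8 apart, against 1.87% of all genes). The log2 CPM of Chrnb3 minus the score averaged -0.32 in MPTP and -0.33 in saline, with ranges of -0.45 to -0.20 and -0.41 to -0.25. For Chrna6 the averages were -0.51 and -0.62, and for Chrna4 they were 1.41 and 1.27. The differences of the means for the 8 subunits ran from 0.00 for Chrnb3 to 0.30 for Chrnb4. Without saline 3, a comparison added after seeing the data, the groups no longer overlapped for 3 of 8 subunits, Chrna4, Chrnb2 and Chrna7, against 35.8% of all genes. MPTP lay higher in each: by 0.20 for Chrna4 (1.34 to 1.46 against 1.13 to 1.32), 0.25 for Chrnb2 (-2.24 to -2.06 against -2.49 to -2.30) and 0.49 for Chrna7 (-5.01 to -4.67 against -5.53 to -5.10). Chrnb3 stayed at 0.00, Chrna6 was at 0.12 and Chrnb4 at 0.25. The share of subunits apart is close to that of all genes. Without saline 3 the score itself was lower in MPTP (7.96 to 8.22) than in saline (8.35 to 8.41), with no overlap. Subtracting it places MPTP higher for any gene with the same CPM in both groups. These differences therefore do not show a rise of the subunits.

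**Figure D5:**
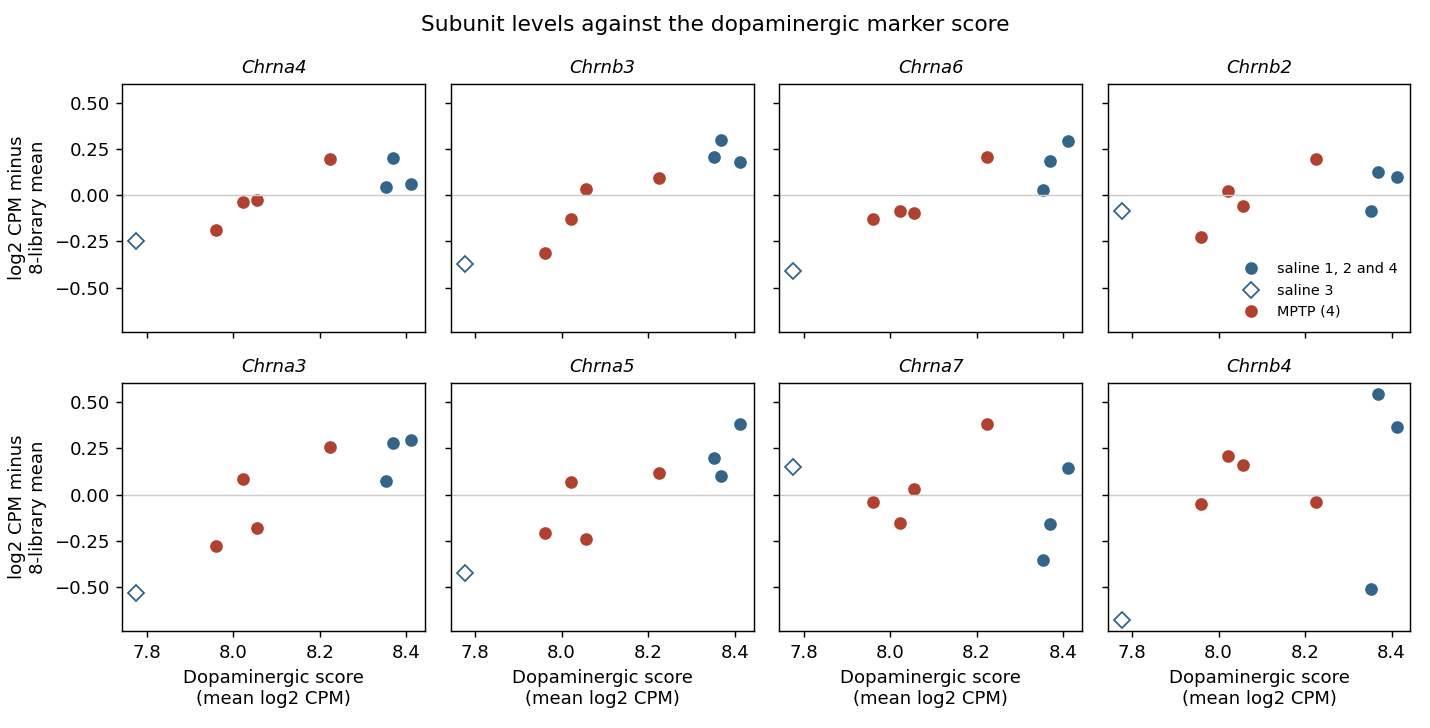
Log2 CPM of each subunit, centred on its mean over the 8 libraries, against the dopaminergic marker score (mean log2 CPM of 12 markers), with MPTP libraries in red, saline in blue and saline 3 as an open diamond. Points of Chrnb3, Chrna6, Chrna5, Chrna3 and Chrna4 rise from left to right, and those of Chrna7 do not.

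Among the 28 pairs of subunits, r of log2 CPM over the 8 libraries ran from -0.21 for Chrna7 with Chrnb3 to 0.95 for Chrna3 with Chrna6. Of these pairs, 19 were above 0.5, and no share of other gene pairs is given for that count. The neighbouring genes Chrna3 and Chrna5 stood at 0.92 and Chrna6 and Chrnb3 at 0.85. Chrna3 and Chrna4, which lie on different chromosomes, stood at 0.92 as well. Without saline 3 these pairs were at 0.87, 0.74 and 0.86. Other pairs moved either way without it: Chrna6 with Chrnb4 from 0.66 to 0.35, and Chrna3 with Chrnb2 from 0.79 to 0.90.

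Of 10255 genes whose mean log2 CPM reached 3, the 2 with the pattern most like each subunit over the 8 libraries were named by Pearson's r. They were Rgs7 (0.99) and Smap1 (0.97) for Chrna3, Ocrl (0.99) and Smap1 (0.96) for Chrna6, and Acsl3 (0.99) and Arl6ip1 (0.96) for Chrna4. Chrna5 was closest to Atf2 (0.98) and Dlg3 (0.98), and Chrnb3 to Paics (0.99) and Cops5 (0.97). Chrnb2 was closest to Cinp (0.95) and Riok3 (0.92), Chrna7 to Gfod2 (0.95) and Prodh (0.93), and Chrnb4 to Mrps31 (0.96) and Yrdc (0.94). With 8 libraries and so many genes, values this high are a ranking and nothing more.

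Other genes of nicotinic signalling were taken from 4 lists, and none of their tested members passed the threshold in either direction. Of the 8 other nicotinic subunits, known from muscle and the inner ear for the most part, 3 were tested. Chrna1 had a log2 fold change of -0.30 (adjusted p = 0.818) and Chrnb1 of 0.06 (adjusted p = 0.962). Chrna2 lay at 0.94 CPM after MPTP and 0.77 CPM after saline. Chrne, Chrng, Chrna9 and Chrna10 had at most 6, 6, 17 and 20 counts in any library. Chrnd had 0 counts in all 8, which allows up to 0.0366 to 0.0571 CPM (3 counts of a library, for counting error only).

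Of 18 tested assembly and accessory proteins, 11 were above 0 and 7 below, with a median log2 fold change of 0.04. Over all genes the median was 0.00, with 49.9% below 0. Ubxn2a, a UBX domain protein linked to subunit trafficking, was at 123, 105, 123 and 115 CPM after MPTP and 139, 165, 142 and 135 CPM after saline. Its groups did not overlap, as for 4.19% of all genes, yet the difference of -0.32 (SE 0.09) had an adjusted p of 0.361. The receptor-binding Ly6 protein Lypd1 (-0.25, adjusted p = 0.491), the calcium sensor Vsnl1 (-0.25, adjusted p = 0.606) and Anks1b (-0.15, adjusted p = 0.640) came next. Ric3 and Tmem35, which help subunits fold and assemble, and the receptor-binding protein Lynx1 were named after their values were seen: their log2 fold changes were 0.05, 0.04 and 0.05. Lynx1 was abundant, at 439.8 ± 41.4 CPM after MPTP and 426 ± 42.3 CPM after saline (SD, 4 libraries each).

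Of 9 genes of acetylcholine synthesis, transport and breakdown, 6 were above 0 and 3 below, with a median of 0.19. Over all genes the median was 0.00, with 49.9% below 0. The acetylcholine-degrading enzyme Ache was at 71.7, 74.2, 73.3 and 81.0 CPM after MPTP and 60.2, 65.4, 67.7 and 69.98 CPM after saline. All 4 MPTP values lay above all 4 saline values, and groups did not overlap for 4.19% of all genes. The log2 fold change of Ache, 0.19 (SE 0.08), had an adjusted p of 0.526 in edgeR. Its relative Bche, at 3.13 and 2.44 CPM, did not overlap either (0.36, adjusted p = 0.703). Slc44a2 (0.20, adjusted p = 0.759) and the vesicular acetylcholine transporter Slc18a3 (0.46, adjusted p = 0.853) completed the 4 smallest p-values among genes whose mean log2 CPM reached 0. Slc18a3 was low and variable, at 2.42 ± 0.98 CPM after MPTP and 1.76 ± 1.83 CPM after saline (SD, 4 libraries each). Its highest value was saline 3, at 4.43 CPM.

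The 5 muscarinic receptors, the G protein-coupled acetylcholine receptors, were all tested and had a median of 0.09, against 0.00 over all genes. Chrm1 had a log2 fold change of -0.43 (adjusted p = 0.743), Chrm2 of 0.24 (adjusted p = 0.813), Chrm3 of 0.12 (adjusted p = 0.925) and Chrm4 of 0.09 (adjusted p = 0.960). Chrm5, the muscarinic receptor known from dopaminergic neurons and named after its values were seen, was at 19.7 ± 1.92 CPM after MPTP and 19.7 ± 4.21 CPM after saline (SD, 4 libraries each).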

How the data were processed

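The authors deposited raw counts per gene for 21761 genes and 8 libraries. The submitters' processing notes name TopHat2 2.0.8 and mm10. The sources used here give no counting tool, annotation or strand setting. Per the labels' protocols, nanogram amounts of RNA were amplified to cDNA and sequenced as single-end reads with 2 libraries to a run. Which libraries shared a run is not given, so run and group cannot be told apart. All 8 columns matched a sample by title. The 27 symbols that had become dates were restored by Entrez identifier, and 90 genes without a symbol (0.0505 to 0.056% of a library's counts) entered by identifier. Every pair of libraries of a group differed by more than sampling noise. The labels do not say that replicates came from separate animals, so the spread behind each p-value is that between these samples and may be technical.

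Counts were tested with edgeR 4.0.16 in R 4.3.3 (TMM scaling, filterByExpr by group, robust quasi-likelihood F-test, no covariate, all 8 libraries, Benjamini-Hochberg adjusted p of 0.05 over 15999 genes). Intervals are 95% and SEs come from the fit. CPM use the TMM-scaled library size, log2 CPM a prior count of 2, and CPM per kb the merged exons of GENCODE vM21. Ratios were compared by an exact permutation of the group labels over 70 arrangements. Alternatives were other scalings and filters, a replicate block, a covariate, each library left out, DESeq2 1.42.0 and limma 3.58.1 voom; 4 more were added after seeing the data. The non-neuronal score is the mean of 4 cell type scores.

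The subunits and gene lists were chosen with earlier results of these data known. Named were all 8 subunits, the 2 genes most like each, Th and Slc6a3, and the 4 smallest p-values of each list among genes whose mean log2 CPM reached 0. Ric3, Tmem35, Lynx1, Chrm5 and the untested subunits with Chrna2 fall outside that rule and were chosen with their values known. The same holds for the markers Gad1, Gad2, Slc32a1, Slc17a6, Slc17a7, Chat, Slc5a7, Tac2, Gpr151 and Pou4f1.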

Additional observations from a re-analysis of the deposited data

Results flagged for a closer look

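Of 28 groups of 4 libraries examined, a library far from the other 3 was found in 2, and chance gives about 1 in 20 groups. Chrna6 in MPTP had its highest value in MPTP 4: the gap to the next library was 0.867 of the group's whole range, beyond Dixon's critical value at 95%, at 221 CPM against 176 to 181 CPM. The log2 ratio of Chrnb4 to Chrnb2 in MPTP had its lowest value in the same library, with a gap of 0.905 of the range, at -4.57 against -4.15 to -4.11. MPTP 4 also had the highest dopaminergic score of the MPTP libraries (8.22), whose part in these values was not tested.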

How the results depend on the processing

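Over 18 alternative fits (17 for Chrnb4, which was not tested at a mean CPM of at least 5), the 8 subunits were called in none except Chrnb3 by DESeq2 without saline 3 (1 subunit, -0.30, adjusted p = 0.0455). The adjusted p of Chrnb3 ran from that value to 0.977. With each library left out in turn, log2 fold changes ran from -0.23 to 0.0087 for Chrna3, -0.11 to 0.036 for Chrna4, -0.29 to -0.04 for Chrna5, -0.19 to 0.025 for Chrna6, -0.010 to 0.18 for Chrna7, -0.10 to 0.041 for Chrnb2, -0.30 to -0.10 for Chrnb3 and -0.13 to 0.28 for Chrnb4, with 0 subunits called each time. Signs turned without MPTP 1 (Chrna3, Chrna4, Chrnb2), saline 2 (Chrna3, Chrna6, Chrnb2), saline 4 (Chrna3, Chrna4, Chrnb2), MPTP 4 (Chrna7), and saline 1 or saline 3 (Chrnb4). Differences of log2 ratios ran from -0.079 to 0.053 for Chrna6 to Chrna4, -0.24 to -0.05 for Chrnb3 to Chrnb2, -0.18 to -0.01 for Chrna5 to Chrna4, -0.001 to 0.34 for Chrnb4 to Chrnb2, -0.066 to 0.040 for Chrna3 to Chrna6 and 0.03 to 0.29 for Chrna7 to Chrna4. With the non-neuronal covariate the signs of Chrna3 (0.15), Chrna4 (0.065), Chrna5 (0.047), Chrna6 (0.11) and Chrnb2 (0.034) turned. With it and without saline 3, a fit added after seeing the data, they were 0.14, 0.014, 0.022, 0.065 and 0.17. In that fit covariate and group cannot be told apart, since the scores of the MPTP and saline libraries do not overlap. By DESeq2 without saline 3, also added, Chrnb4 was at -0.13. The cause of these turns was not tested.

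Over all genes, 17 were called (12 higher, 5 lower). Leaving out 1 library gave 8 to 297 calls, 8 to 138 higher and 0 to 159 lower, the highest counts without saline 3. A mean CPM of at least 5 gave 11 calls (7 higher), DESeq2 53 (25 higher, 28 lower), DESeq2 without saline 3 829 (411 higher, 418 lower), and the covariate without saline 3 gave 11 lower calls. Deviations of same-numbered libraries correlated from -0.12 to 0.04, and those of differently numbered libraries from -0.07 to 0.09. Whether the replicate numbers pair the libraries cannot be told from these values. With the replicate block 14 genes and 0 subunits were called, with Chrnb3 at -0.16, Chrna5 at -0.13, Chrna7 at 0.11 and Chrnb4 at 0.14. Chrnb4 had the widest interval, the fewest counts (119 to 263) and the largest spread in saline (coefficient of variation 41.4%). What depth adds to it was not tested.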
